A study of Mus musculus with 15 samples.

Results

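The genes described here are a set of 57 that carry chromosomes through mitosis: the cyclins and kinases of mitotic entry, the spindle checkpoint, the anaphase machinery, centromere and kinetochore proteins, spindle kinesins, cytokinesis proteins, chromosomal passengers and the condensation machinery. A gene entered the set by its symbol, but the members were chosen with earlier results of these data known. A probe set counted for a gene only if the platform's annotation assigned it to that symbol and no other, and the brightest such probe set, by its mean over the 15 arrays, stood for the gene. Of the 57, 56 had such a probe set, and all 56 passed the filter on low signal, among 12701 genes tested in all. Ccnb1, which encodes cyclin B1, is not analysed here.

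The RNA came from a single cell line of dendritic cells, which the labels trace to epidermis of A/J mice at the newborn stage, and was measured on 15 expression arrays. The 5 groups of 3 arrays were non-treated cells, cells given DNFB, cells given H2O2, cells given DPI, and cells given DPI + DNFB. DNFB is the chemical allergen of the design text and the usual abbreviation of dinitrofluorobenzene, a contact sensitiser. H2O2 is hydrogen peroxide, and DPI is the inhibitor of reactive oxygen species (ROS), an abbreviation generally used for diphenyleneiodonium, a flavoenzyme inhibitor. The labels call the control group non-treated, whereas the design text speaks of vehicle. Doses, exposure times and cell counts are not given, and no group received DPI with H2O2. Whether each array stands for its own culture is not stated, and the p-values below measure the spread between arrays, which may be technical.

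Cells make these transcripts mostly between late S phase and mitosis. Cyclin-dependent kinase 1, bound to A- and B-type cyclins, starts mitosis; condensins and topoisomerase II fold the chromosomes; kinetochores built on the centromeric histone CENP-A attach them to spindle microtubules; and the checkpoint holds back the anaphase-promoting complex until every chromosome is attached. Many of their promoters carry CCAAT boxes and a cell cycle homology region whose core reads TTTGAA, through which MuvB complexes act: DREAM represses the genes in resting cells, and B-MYB and FOXM1 activate them later in the cycle. Dendritic cells in the body largely stop dividing as they mature, while a cell line keeps cycling.

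Promoters of 8 members are printed, chosen because the results turn on them. Cdk1, Ccnb2, Top2a and Spc25 were lower with DNFB and H2O2. Cdc20 and Pttg1 were the pair that was highest with DPI + DNFB. Cenpa was higher with DNFB, and Bub3 stayed low with DPI + DNFB. The sequences are RefSeq's for build GRCm38.p6 and run 5′ to 3′ on the gene's strand, from 120 bases before the annotated start to 30 after it. Capitals mark TTTGAA and CCAAT, or their reverse complements TTCAAA and ATTGG.
Cdk1 (chr10:69352883-69353032, minus strand): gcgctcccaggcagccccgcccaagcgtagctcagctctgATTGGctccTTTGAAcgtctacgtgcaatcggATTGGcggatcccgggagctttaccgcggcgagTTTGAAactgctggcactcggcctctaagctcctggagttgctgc
Ccnb2 (chr9:70421525-70421674, minus strand): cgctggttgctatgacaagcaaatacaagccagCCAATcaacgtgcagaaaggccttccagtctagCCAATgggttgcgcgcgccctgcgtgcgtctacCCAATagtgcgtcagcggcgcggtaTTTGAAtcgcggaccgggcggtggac
Cdc20 (chr4:118437314-118437463, minus strand): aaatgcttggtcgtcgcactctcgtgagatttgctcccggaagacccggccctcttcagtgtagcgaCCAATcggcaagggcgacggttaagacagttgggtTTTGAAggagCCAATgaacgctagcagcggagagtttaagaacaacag
Top2a (chr11:99024160-99024309, minus strand): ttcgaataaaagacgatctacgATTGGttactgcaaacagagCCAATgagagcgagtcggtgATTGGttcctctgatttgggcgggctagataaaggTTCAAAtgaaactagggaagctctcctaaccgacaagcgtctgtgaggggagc
Spc25 (chr2:69206184-69206333, minus strand): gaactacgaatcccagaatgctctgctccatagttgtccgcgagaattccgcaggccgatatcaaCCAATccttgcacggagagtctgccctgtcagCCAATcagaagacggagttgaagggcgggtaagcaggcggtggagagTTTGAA
Cenpa (chr5:30666766-30666915, plus strand): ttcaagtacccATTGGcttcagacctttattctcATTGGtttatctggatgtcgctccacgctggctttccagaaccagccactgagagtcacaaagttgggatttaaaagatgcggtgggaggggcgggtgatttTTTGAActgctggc
Bub3 (chr7:131560250-131560399, plus strand): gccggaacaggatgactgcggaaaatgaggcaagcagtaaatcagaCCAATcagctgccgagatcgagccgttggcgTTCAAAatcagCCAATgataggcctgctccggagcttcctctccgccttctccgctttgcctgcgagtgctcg
Pttg1 (chr11:43425952-43426101, minus strand): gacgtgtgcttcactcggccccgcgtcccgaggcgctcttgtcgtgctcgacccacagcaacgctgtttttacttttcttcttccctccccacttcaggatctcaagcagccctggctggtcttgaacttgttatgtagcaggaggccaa

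RefSeq windows from 250 bases before to 50 after the start were at hand for 48 of the 57 genes, and were searched on both strands. The members without one were Aurkb, Cdc25c, Ccna2, Spc24, Kif20a, Tpx2, Incenp, Cdca2 and Smc4. TTTGAA lay in 33 of the 48 windows (68.8%), against 12.0% of the 10272 tested genes with a window and 18.1% of all 27025 windows. CCAAT lay in 35 of the 48 (72.9%), against 38.4% of tested genes, and 22 of the 48 windows (45.8%) held at least 2 CCAAT matches, against 14.6%. Both motifs were present in 28 member windows (58.3%) and in 4.96% of the windows of tested genes. The TTTGAA matches of the members gathered around the start: 30 of 48 windows (62.5%) had one from 60 bases before the start to the window's end, against 3.16% of tested genes, a span chosen after the positions were seen. In Cdk1 the TTTGAA matches began 71 and 15 bases before the start, in Cdc20 18 before it and in Top2a 179 and 23 before it. Cenpa, the member that moved up with DNFB, also held TTTGAA, beginning 16 bases after its start. Pttg1 held neither motif. These are matches of letters and not measured binding sites, and a match says nothing of which factor bound in these cells.

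**Figure D1:**
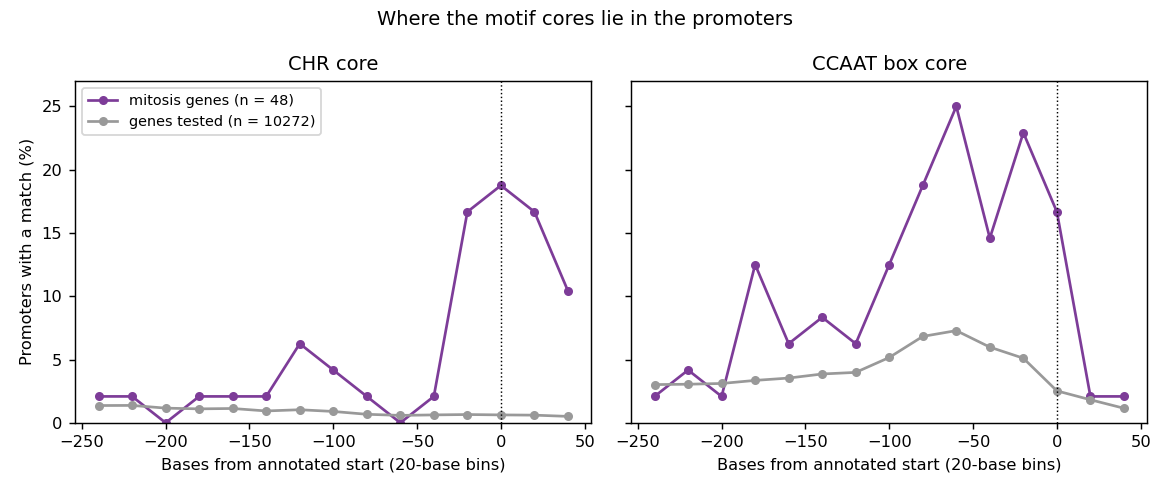
Share of promoter windows (%, y axis) with a match to TTTGAA or CCAAT, on either strand, in bins of 20 bases along the distance from the annotated start (x axis), for the members with a window (48) and all tested genes with a window (10272). Member matches to TTTGAA gather near the start and those to CCAAT upstream of it.

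Members were also read by whether their window held TTTGAA. The 33 members with it had a median log2 fold change of -0.97 with DNFB, and 30 of them fell and 1 rose. The 14 members with a window but no TTTGAA that were tested had a median of -0.80, and 11 of them fell. With DPI + DNFB against DNFB, 27 of the 33 and 11 of the 14 rose. No test was made of the difference between these 2 kinds of member.

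Signals below are MAS5 signals, a linear measure per probe set, after each array was rescaled to a trimmed mean of 500. As deposited, that mean was 250 on 6 arrays (DNFB replicate 3 and the 5 arrays numbered replicate 1) and 500 on 9, so results are also given within each set. The set at 500 has 2 arrays of each group but 1 of DNFB, with 4 residual degrees of freedom. The set at 250 has 1 array of each group but 2 of DNFB, with 1 residual degree of freedom, so that the spread there comes from the DNFB pair, moderated across genes. A lone array is assumed to vary as the others do, and these counts are no replicated test of a group with 1 array. Fold changes are differences of log2(signal + 15), which draws the folds of dim genes toward 1, given with ± the SE of a limma fit to all 15 arrays, and p-values carry the Benjamini-Hochberg adjustment over the 12701 genes. A gene is said to have risen or fallen when its adjusted p was below 0.05. The median SE of a difference was 0.197 log2 units, and the number of arrays limits the precision. Levels of different genes are not compared, since probe sets differ in brightness.

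Across genes, arrays of a group correlated at 0.962 to 0.973 in every group but DPI + DNFB, where the range was 0.946 to 0.949. DPI + DNFB replicates 1 and 3 also stood apart in the beta-actin ratio and the median signal, and replicate 2 did not. Their ratio of 3′ to 5′ beta-actin signal was 2.07 and 2.29, against 1.50 on replicate 2 and 1.19 to 1.53 on the other 12 arrays. Their median rescaled signal was 130.2 and 132, against 113 on replicate 2 and 92.6 to 114 on the other 12. In the 3′ to 5′ ratio of Gapdh, however, all 3 DPI + DNFB arrays stood apart. It was 1.09, 0.95 and 1.27 on replicates 1, 2 and 3, against 0.81 to 0.92 on the other 12 arrays. Dendritic cell markers were present: 12 of the 13 measured passed the signal filter, and their summed signal was 84323 to 98204 on the non-treated arrays, 82563 to 92287 with DNFB, 103259 to 115945 with H2O2, 88484 to 114047 with DPI and 107538 to 113122 with DPI + DNFB. All 7 macrophage markers measured also passed, and their summed signal was 19513 to 23586 on the non-treated arrays, 23421 to 25621 with DNFB, 13899 to 19116 with H2O2, 13386 to 14915 with DPI and 16125 to 19617 with DPI + DNFB. Of the other cell types, 3 of 7 keratinocyte, 1 of 6 fibroblast, 1 of 5 T cell, 2 of 5 mast cell, 3 of 6 melanocyte and 1 of 4 endothelial markers passed the filter. Mast cell sums were 1839 to 2012 on the non-treated arrays and 704 to 765 with DPI + DNFB, and lay between these in the other groups. Keratinocyte sums were 1334 to 1843 on the non-treated arrays, 898 to 1253 with DNFB and 883 to 1208 with H2O2, and melanocyte sums 1053 to 1229, 764 to 991 and 699.6 to 811. The part of these markers in the results was not tested. In bulk RNA, fewer cells in mitosis and less of these transcripts in each cell cannot be told apart.

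The mitosis genes moved largely as a block. Their median difference from the non-treated mean was -0.92, -0.86 and -0.97 on the DNFB arrays, -1.09, -0.91 and -1.03 on the H2O2 arrays, -0.12, -0.02 and -0.06 on the DPI arrays, and 0.11, 0.21 and 0.10 on the DPI + DNFB arrays. DNFB and H2O2 arrays were therefore low and the other 9 arrays close together. On every DNFB array at least 52 members, and on every H2O2 array at least 53, lay under all 3 non-treated arrays. The share of all genes was not counted for single arrays. For all 3 arrays of a group wholly under the non-treated ones it was 23.7% with DNFB and 24.8% with H2O2. The lowest group mean belonged to H2O2 in 36 members and to DNFB in the other 20. The highest belonged to DPI + DNFB in 27 members, to the non-treated cells in 16, to DPI in 12 and to DNFB in 1, which was Cenpa.

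**Figure D2:**
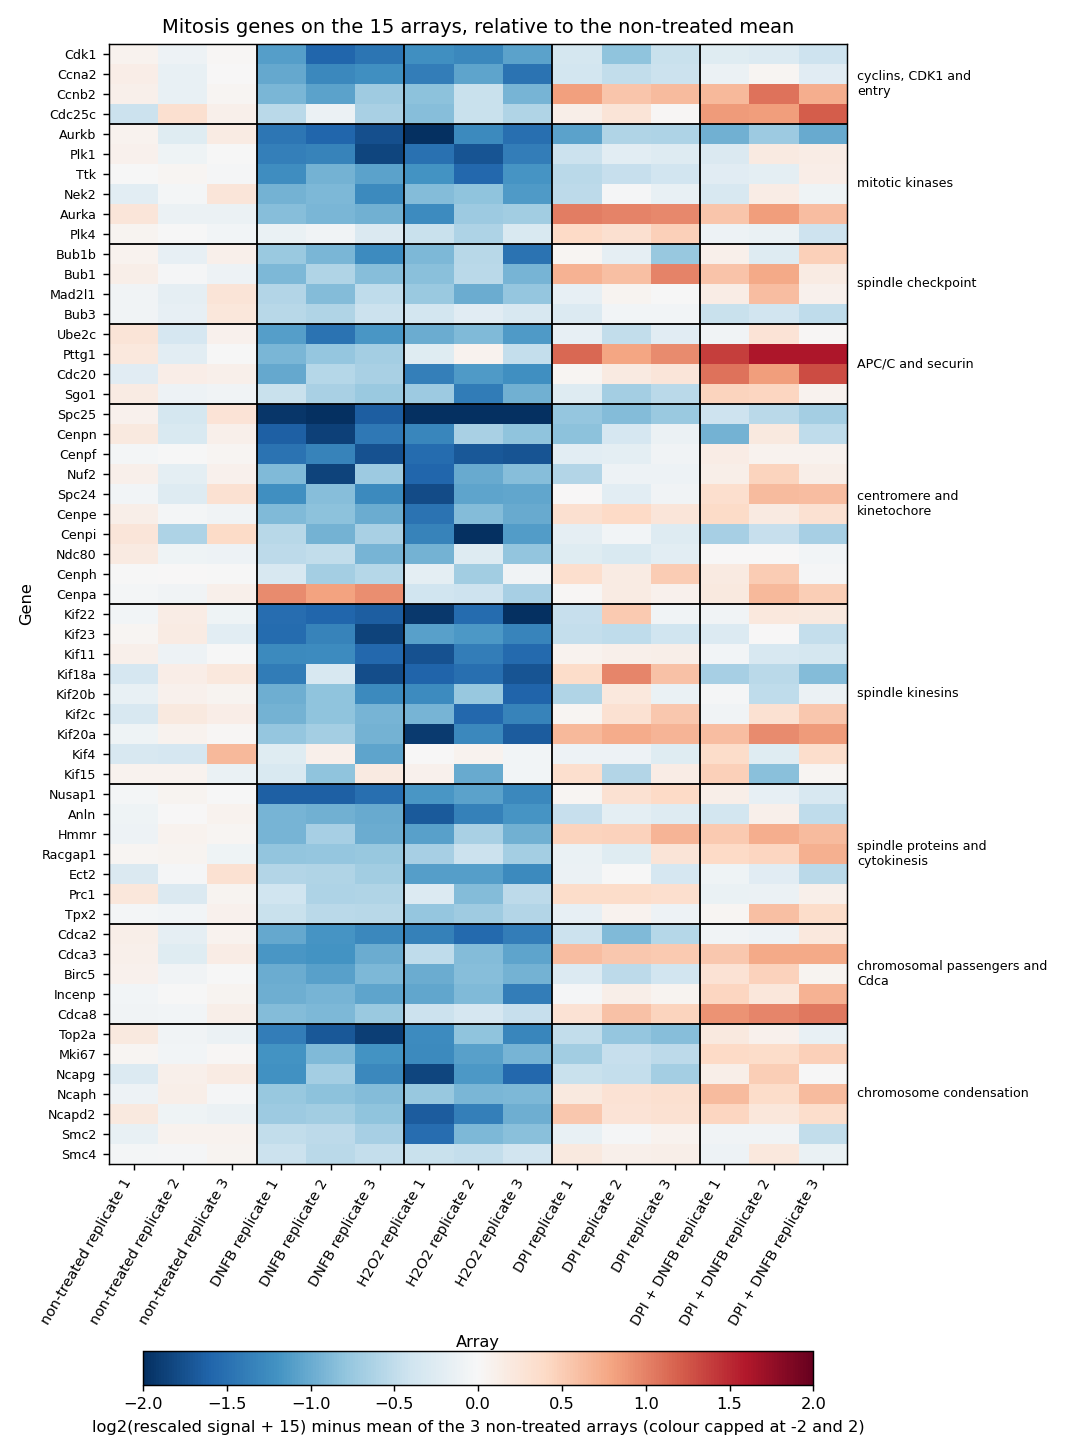
Heat map of the 56 members (rows, grouped by role) on the 15 arrays (columns, by group); colour gives log2(rescaled signal + 15) minus the mean of the 3 non-treated arrays, capped at -2 and 2. The DNFB and H2O2 columns are low in nearly every row, apart from Cenpa with DNFB, and the DPI + DNFB columns are near or above the non-treated ones.

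The first question of the design is what the allergen did. With DNFB, genes for every stage of mitosis fell, from Ccna2 and Cdk1 of mitotic entry to Top2a, which untangles chromosomes, and the kinesins of the spindle. Of the 56 members, 49 fell and 1 rose, against 13.9% and 10.5% of all genes tested, or 24.4% in either direction. A fall of at least 2-fold was seen in 23 members and in 476 of all 12701 genes. The median member stood at -0.90 and the median gene at -0.06. Spc25, an outer kinetochore subunit, fell furthest (4.0-fold), then Top2a (3.15-fold) and Cenpn (3.12-fold), which reads the CENP-A nucleosome. The 3 DNFB arrays lay wholly under the 3 non-treated arrays for 50 members and wholly above for 1, against 23.7% and 17.8% of all genes. By role, those that fell were 3 of 4 cyclin, CDK1 and entry genes, 5 of 6 kinases, 4 of 4 checkpoint genes, 4 of 4 anaphase genes, 7 of 10 kinetochore genes, 7 of 9 kinesins, 7 of 7 spindle and cytokinesis genes, 5 of 5 passenger and Cdca genes and 7 of 7 condensation genes. The 6 members that did not pass were Cdc25c (-0.43), Plk4 (-0.16), Cenph (-0.52), Cenpi (-0.72), Kif15 (-0.31) and Kif4 (-0.40), all with values below 0. Of the members that passed, 36 had several probe sets above the filter, and in 5 of them another one had the opposite sign. With probe sets averaged, 44 of the 49 stayed lower and Cenpa higher, against 12.6% and 9.32% of all genes. Cdc20, Cdca3, Kif2c, Sgo1 and Tpx2 no longer passed. The arrays deposited at 500 set 1 DNFB array against 2 non-treated and those at 250 set 2 against 1, so neither replicates both groups. The median member stood at -0.86 from the non-treated mean on DNFB replicate 2, deposited at 500. It stood at -0.92 and -0.97 on replicates 1 and 3, deposited at 250.

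The parallel question for hydrogen peroxide was whether an oxidant moved this set too. With H2O2, 52 members fell and 0 rose, against 17.4% and 10.9% of all genes tested by limma. Without adjustment the limma count of members higher at a p under 0.05 was also 0. The median member stood at -1.09 and the median gene at -0.06. A fall of at least 2-fold was seen in 31 members and in 609 of all 12701 genes. The furthest were Spc25 (4.28-fold), Kif22 (3.65-fold), a chromosome-arm kinesin, and Cenpf (3.15-fold), a kinetochore and nuclear matrix protein. For 52 members the 3 H2O2 arrays lay wholly under the non-treated ones, against 24.8% of all genes. The 4 that did not pass were Pttg1 (-0.21), Cenph (-0.32), Kif15 (-0.33) and Kif4 (0.00). Of the 52 that fell, 37 had several probe sets above the filter, and in 5 of them another one had the opposite sign. With probe sets averaged, 46 of the 52 stayed lower, against 15.1% of all genes. DNFB and H2O2 were compared with the same 3 non-treated arrays, so the 2 sets of values are given side by side and not correlated. In the arrays deposited at 500 by themselves (2 against 2) 45 members fell, against 11.8% of all genes. Those at 250 set 1 H2O2 array against 1 non-treated, which is no replicated test.

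**Figure D3:**
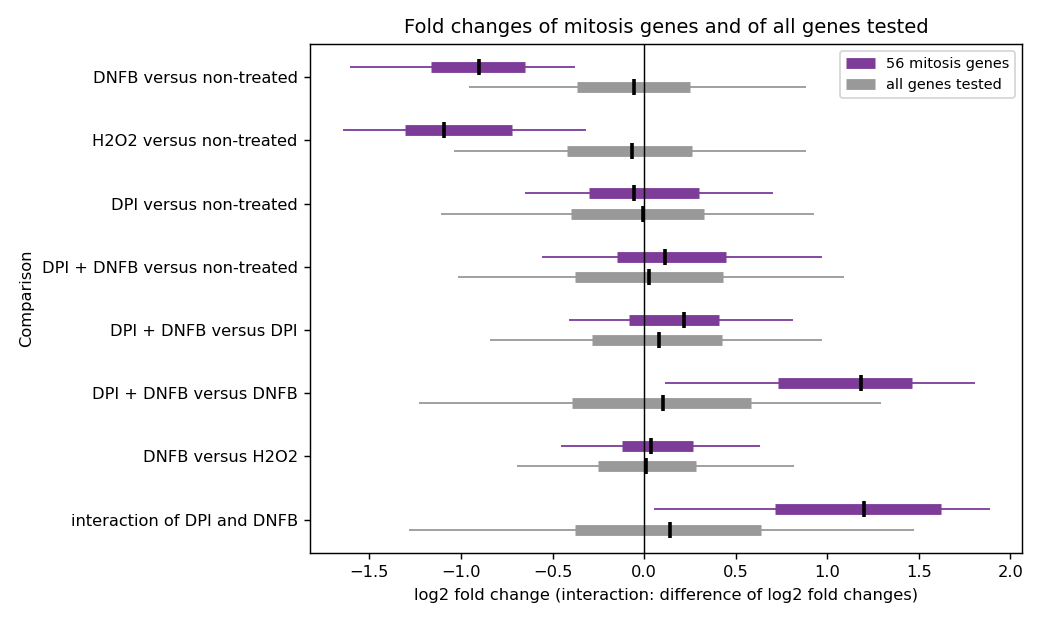
Spread of log2 fold changes (x axis) in each of 8 comparisons (y axis) for the 56 members and for all 12701 genes tested; black marks are medians, thick bars run from the 25th to the 75th percentile and thin bars from the 5th to the 95th. Members lie well to the left of all genes with DNFB (median -0.90) and H2O2 (-1.09) and to the right with DPI + DNFB against DNFB (1.19) and in the interaction (1.20).

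Among the genes of mitotic entry, all those measured were low with H2O2 and all but Cdc25c with DNFB. Cdk1, the kinase that drives cells into mitosis, gave signals of 3857, 3423 and 3725 on the non-treated arrays, 1702, 1214 and 1328 with DNFB, 1549, 1485 and 1731 with H2O2, 2871, 2089 and 2697 with DPI, and 3080.0, 3031 and 2747 with DPI + DNFB. Every DNFB and H2O2 array was below every array of the other 3 groups, and DPI + DNFB arrays lay between the DNFB and non-treated levels. Cdk1 fell by 1.38 ± 0.13 log2 units with DNFB (adjusted p = 2.7e-07, limma) and by 1.20 with H2O2, and was 1.07 higher with DPI + DNFB than with DNFB. Ccna2, cyclin A2, which partners kinases in S phase and early mitosis, gave 2164, 1779 and 1980.0 on the non-treated arrays, 961, 797 and 835 with DNFB, 749.6, 944 and 695 with H2O2, 1529.8, 1392 and 1462 with DPI, and 1806, 2024 and 1680.0 with DPI + DNFB. Its DNFB and H2O2 arrays were again the lowest 6, with changes of -1.18 and -1.30 against the non-treated cells. Ccnb2, cyclin B2, gave 1705, 1440.1 and 1636 on the non-treated arrays, 839.5, 749 and 962 with DNFB, 898, 1161 and 824 with H2O2, 2830.0, 2349 and 2482 with DPI, and 2503, 3394 and 2634 with DPI + DNFB. Here DPI and DPI + DNFB arrays were above all non-treated arrays, and the DNFB arrays below them (-0.90). Cdc25c, the phosphatase that frees CDK1 from its inhibitory phosphates, gave 191, 333 and 282 on the non-treated arrays, 176, 240.2 and 162 with DNFB, 139, 188 and 168 with H2O2, 284, 315 and 265 with DPI, and 486, 479 and 626 with DPI + DNFB. Its DNFB and non-treated arrays overlapped, and its fall with H2O2 (-0.63 ± 0.23, adjusted p = 0.048, limma) was lost without non-treated replicate 2 or 3, DNFB replicate 1 or 3, H2O2 replicate 1 or 3, DPI replicate 1, 2 or 3, or DPI + DNFB replicate 1 or 2 (log2 -0.47 to -0.65, adjusted p 0.051 to 0.21).

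Of the 6 mitotic kinases, 5 fell with DNFB and all 6 with H2O2. Plk1, the polo-like kinase that matures centrosomes and drives mitotic exit, gave 1066, 943 and 996 on the non-treated arrays, 379, 386 and 269 with DNFB, 347, 292 and 374 with H2O2, 740.3, 863 and 832 with DPI, and 816, 1141 and 1110.4 with DPI + DNFB. All 6 DNFB and H2O2 arrays were below all 9 others, and Plk1 was 2.86-fold lower with DNFB (-1.52 ± 0.17, adjusted p = 1.6e-06, limma) and 2.89-fold higher with DPI + DNFB than with DNFB. Aurka, the centrosomal Aurora kinase, gave 1004, 776 and 777 on the non-treated arrays, 465, 444 and 429 with DNFB, 344, 508 and 517 with H2O2, 1742, 1691 and 1656 with DPI, and 1256, 1516 and 1309 with DPI + DNFB. Its order differed from that of Plk1: the DPI arrays were the highest 3 of the 15, above those with DPI + DNFB, and the DNFB and H2O2 arrays the lowest 6. Aurka was 1.99-fold higher with DPI than without (0.99 ± 0.16, adjusted p = 6.4e-05). Aurkb, the Aurora kinase of the chromosomal passenger complex, which corrects faulty attachments, gave 699.8, 559 and 746 on the non-treated arrays, 233, 210.3 and 186 with DNFB, 138, 266 and 224 with H2O2, 309, 433 and 428 with DPI, and 333, 397 and 323 with DPI + DNFB. Both DPI groups lay between the non-treated arrays and the 6 low arrays without overlap. Aurkb was 3.03-fold lower with DNFB and still 1.86-fold lower with DPI + DNFB than in non-treated cells (-0.90 ± 0.23, adjusted p = 0.0044), a call that was lost with the actin ratio as a covariate (log2 -0.76, adjusted p = 0.28). Its rise from DNFB to DPI + DNFB (0.70 ± 0.23, adjusted p = 0.016) was lost without DNFB replicate 3 or DPI + DNFB replicate 2 (log2 0.61 to 0.63, adjusted p 0.055 to 0.06).

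Ttk, also called MPS1, the kinase that starts the checkpoint signal at kinetochores, gave 681, 703 and 671 on the non-treated arrays, 281, 348 and 319.8 with DNFB, 290.5, 219.8 and 293 with H2O2, 468, 492 and 520.3 with DPI, and 582, 598 and 755 with DPI + DNFB. The DNFB and H2O2 arrays were lowest, DPI arrays next and below every non-treated array, and DPI + DNFB arrays spread into the non-treated range. Ttk fell by 1.08 with DNFB and fell by 1.32 with H2O2, and its fall with DPI (-0.46 ± 0.17, adjusted p = 0.039, limma) was lost without non-treated replicate 1, 2 or 3 or DPI replicate 1, 2 or 3 (log2 -0.43 to -0.50, adjusted p 0.062 to 0.11). Nek2, a kinase that separates centrosomes, fell by 1.04 with DNFB and fell by 0.94 with H2O2, and rose by 0.95 from DNFB to DPI + DNFB. Plk4, the master kinase of centriole duplication, gave 1196, 1138 and 1110.3 on the non-treated arrays, 1044, 1094 and 939.5 with DNFB, 841, 743 and 929 with H2O2, 1525, 1442 and 1606 with DPI, and 1069, 1047 and 861 with DPI + DNFB. Its DNFB arrays lay just under the non-treated ones without passing (-0.16 ± 0.13, adjusted p = 0.41). With H2O2 it fell by 0.45, a call lost without H2O2 replicate 2 (log2 -0.37, adjusted p = 0.055). Plk4 was higher with DPI (0.40) and lower with DPI + DNFB than with DPI (-0.62), but a dimmer probe set of Plk4 gave -0.19 and 0.71 in those comparisons. The first of those calls was lost without non-treated replicate 2 or 3 or DPI replicate 3 (log2 0.37 to 0.40, adjusted p 0.052 to 0.071).

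The 4 checkpoint genes fell with both agents. Bub1, the kinase that recruits checkpoint proteins to kinetochores, gave 2097, 1893 and 1789 on the non-treated arrays, 1028, 1262 and 1059 with DNFB, 1071, 1320.2 and 1003 with H2O2, 3112, 2920.1 and 3819 with DPI, and 2866, 3254 and 2152 with DPI + DNFB. The DNFB and H2O2 arrays were the lowest 6, the DPI and DPI + DNFB arrays the highest 6, and Bub1 rose by 0.76 with DPI. Bub1b, or BUBR1, a part of the mitotic checkpoint complex, gave 513, 434 and 524 on the non-treated arrays, 286, 252 and 195 with DNFB, 255, 329 and 166 with H2O2, 504, 429.7 and 283 with DPI, and 528, 408 and 688 with DPI + DNFB. Its arrays within a group spread widely, and DPI replicate 3 lay among the DNFB arrays. It fell by 0.98 ± 0.26 with DNFB and 0.98 ± 0.26 with H2O2, the latter call lost without H2O2 replicate 3 (log2 -0.72, adjusted p = 0.053). Mad2l1, MAD2, which binds and restrains CDC20, gave 2893, 2684 and 3648 on the non-treated arrays, 2025, 1665 and 2148 with DNFB, 1807, 1527 and 1779.9 with H2O2, 2709, 3151 and 3041 with DPI, and 3369, 4664 and 3229 with DPI + DNFB. The lowest 6 arrays were again those with DNFB and H2O2, and the other groups overlapped. Its changes were -0.65 with DNFB, -0.84 with H2O2 and 0.93 from DNFB to DPI + DNFB.

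Bub3, which docks BUB1 and BUBR1 on the kinetochore scaffold, gave 4522, 4241 and 5588 on the non-treated arrays, 3230.0, 3139 and 3529.5 with DNFB, 3659.9, 4067 and 3821 with H2O2, 3917, 4584 and 4575 with DPI, and 3492, 3627 and 3350.5 with DPI + DNFB. The DNFB and DPI + DNFB arrays overlapped, and both groups lay below all non-treated arrays. Bub3 fell by 0.53 with DNFB (adjusted p = 0.0013, limma), was 0.08 ± 0.11 from DNFB to DPI + DNFB (adjusted p = 0.58), and fell with DPI + DNFB against DPI (-0.32 ± 0.11, adjusted p = 0.038). That last call was lost without DPI replicate 2 or 3 or DPI + DNFB replicate 1 or 3 (log2 -0.28 to -0.32, adjusted p 0.078 to 0.13), and the fall with H2O2 (-0.30 ± 0.11, adjusted p = 0.046) without non-treated replicate 1 or 3, DNFB replicate 1 or 2, H2O2 replicate 1, 2 or 3, DPI replicate 2 or 3, or DPI + DNFB replicate 1 (log2 -0.19 to -0.34, adjusted p 0.051 to 0.27). Among the other probe sets of Bub3 that passed the filter, 1 gave -0.85 with DNFB and a dimmer one 0.17.

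The genes of anaphase included the 2 highest values with DPI + DNFB against non-treated cells, those of Pttg1 and Cdc20. Pttg1, securin, which keeps separase inactive until anaphase, gave 7590.3, 5662 and 6519 on the non-treated arrays, 3474, 3822 and 4098 with DNFB, 5519, 6904 and 4710.2 with H2O2, 14511, 11301 and 12584 with DPI, and 17166, 20023 and 20197 with DPI + DNFB. Its DPI + DNFB arrays were above all DPI arrays, those above all non-treated arrays, and the DNFB arrays below all of them. Pttg1 was 1.72-fold lower with DNFB (-0.79 ± 0.14, adjusted p = 2.6e-04, limma), -0.21 with H2O2 without passing (adjusted p = 0.28), 1.94-fold higher with DPI and 2.91-fold higher with DPI + DNFB than in non-treated cells. The dimmest of its 3 probe sets gave -0.53 from DPI to DPI + DNFB. Cdc20, the activator of the anaphase-promoting complex, gave 5066, 6488 and 6337 on the non-treated arrays, 2895, 3994 and 3791 with DNFB, 2299, 2699.5 and 2533 with H2O2, 6109.7, 6724 and 7036 with DPI, and 12549, 10541 and 14648 with DPI + DNFB. The 3 DPI + DNFB arrays stood above the 12 others, and DPI arrays were within reach of the non-treated ones. Cdc20 fell by 0.75 with DNFB and fell by 1.24 with H2O2 and was 2.10-fold higher with DPI + DNFB than non-treated (1.07 ± 0.14, adjusted p = 8.5e-06), which became log2 0.70, adjusted p = 0.058 with the actin ratio as a covariate. Another, dimmer probe set of Cdc20 gave 0.24 with DNFB. Ube2c, the ubiquitin-conjugating enzyme of the same complex, gave 4763, 3139 and 4236 on the non-treated arrays, 1849, 1426 and 1773 with DNFB, 1991, 2159 and 1806 with H2O2, 3556, 2826 and 3399 with DPI, and 3783, 4822 and 4037 with DPI + DNFB. The 6 DNFB and H2O2 arrays were below the other 9, among which the groups overlapped, and Ube2c was 2.37-fold lower with DNFB. Sgo1, shugoshin, which guards centromeric cohesin, fell by 0.61 with DNFB and fell by 1.03 with H2O2, the former lost without non-treated replicate 1 or DNFB replicate 2 or 3 (log2 -0.52 to -0.59, adjusted p 0.055 to 0.086).

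Kinetochore genes ranged from Spc25 at -2.0 to Cenpa at 0.89 with DNFB. Spc25, a subunit of the microtubule-binding NDC80 complex, gave 1485, 1089.5 and 1689 on the non-treated arrays, 353, 252 and 434 with DNFB, 294, 333 and 319.9 with H2O2, 808, 762 and 831 with DPI, and 1049.8, 953 and 871 with DPI + DNFB. The groups stood in separate steps, with non-treated highest, DPI + DNFB next, DPI below it and DNFB and H2O2 overlapping at the bottom. Spc25 was 4.0-fold lower with DNFB (-2.0 ± 0.18, adjusted p = 1.3e-07, limma) and 4.28-fold lower with H2O2. Its deficit with DPI + DNFB (-0.54 ± 0.18, adjusted p = 0.027) was lost without non-treated replicate 1 or 3 or DPI + DNFB replicate 2 or 3 (log2 -0.41 to -0.54, adjusted p 0.051 to 0.14) and with the actin covariate (-0.27, adjusted p = 0.69). Ndc80, the subunit that gives the complex its name, gave 458, 377 and 372 on the non-treated arrays, 275, 279.7 and 203 with DNFB, 201, 334 and 226 with H2O2, 335, 320.0 and 346 with DPI, and 403, 402 and 384 with DPI + DNFB. The DNFB arrays were below all non-treated, DPI and DPI + DNFB arrays, whereas H2O2 replicate 2 lay within the DPI range. Ndc80 fell by 0.65 with DNFB and fell by 0.66 with H2O2, the former lost without non-treated replicate 1 or DNFB replicate 3 (log2 -0.51 to -0.55, adjusted p 0.11 to 0.12), the latter without non-treated replicate 1 or H2O2 replicate 1 or 3 (log2 -0.52 to -0.60, adjusted p 0.07 to 0.093). The other subunits, Nuf2 and Spc24, fell by 1.16 and 1.12 with DNFB and rose by 1.38 and 1.65 from DNFB to DPI + DNFB.

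Cenpa encodes the histone H3 variant on which each centromere is built, and it was the single member to rise with DNFB. It gave 3598, 3485 and 3967 on the non-treated arrays, 7069, 6435 and 6999 with DNFB, 2778, 2759 and 2313 with H2O2, 3756, 4118 and 3912 with DPI, and 4215, 5767 and 5173 with DPI + DNFB. The 3 DNFB arrays were the highest of the 15 and the 3 H2O2 arrays the lowest. Cenpa was 1.85-fold higher with DNFB (0.89 ± 0.12, adjusted p = 8.7e-06, limma), 1.41-fold lower with H2O2 (-0.49 ± 0.12, adjusted p = 0.0028), and 1.36-fold lower with DPI + DNFB than with DNFB (-0.45 ± 0.12, adjusted p = 0.0037). That last call was lost with the actin ratio as a covariate (-0.19, adjusted p = 0.43). Another probe set of Cenpa, dimmer but above the filter, moved the same way, by 0.73 with DNFB, -0.97 with H2O2 and -0.32 from DNFB to DPI + DNFB. The difference between DNFB and H2O2 was 1.38 ± 0.12, adjusted p = 1.8e-07. The non-treated arrays take no part in that difference, though they do in the shared estimate of the spread.

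Of the other centromere members, Cenpf, Cenpe and Cenpn fell with both agents. Cenpf, a large protein of the outer kinetochore and the G2 nucleus, gave 1365, 1409 and 1456 on the non-treated arrays, 496, 549 and 413 with DNFB, 477, 423 and 414 with H2O2, 1219, 1231 and 1347 with DPI, and 1564, 1483 and 1481 with DPI + DNFB. The 6 DNFB and H2O2 arrays were far below the 9 others, and Cenpf fell by 1.52 ± 0.13 with DNFB (adjusted p = 3.7e-08, limma) and by 1.66 ± 0.13 with H2O2. Cenpe, the kinesin that moves chromosomes to the spindle equator, gave 1462, 1307 and 1279 on the non-treated arrays, 721, 752 and 669 with DNFB, 473, 734 and 661 with H2O2, 1680.2, 1774 and 1595 with DPI, and 1753, 1526 and 1663 with DPI + DNFB. The same 6 arrays were lowest, and Cenpe fell by 0.90 with DNFB and fell by 1.12 with H2O2. Its DPI arrays were above the non-treated ones without passing (0.32, adjusted p = 0.098). Cenpn gave 1486, 1049 and 1387 on the non-treated arrays, 406, 344 and 473 with DNFB, 517, 819 and 732 with H2O2, 727, 1021 and 1196 with DPI, and 663, 1491 and 909 with DPI + DNFB. It fell by 1.64 with DNFB, and its DPI + DNFB arrays spread from below the non-treated range to its top. Its smaller fall with H2O2 (-0.92 ± 0.25, adjusted p = 0.0078) was lost without H2O2 replicate 1 (log2 -0.73, adjusted p = 0.051). Cenpi, of the constitutive inner kinetochore, gave 391, 207 and 429 on the non-treated arrays, 217, 163 and 203 with DNFB, 121, 69.5 and 142 with H2O2, 288, 313 and 270.1 with DPI, and 202, 234 and 200.3 with DPI + DNFB. It fell with H2O2 (-1.49 ± 0.28, adjusted p = 4.5e-04), whereas its DNFB arrays overlapped the non-treated ones. Cenph, from the same inner complex, did not pass with DNFB or H2O2 (-0.52 and -0.32).

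Of the 9 spindle kinesins, 7 fell with each agent. Kif11, or Eg5, which pushes spindle poles apart, gave 1811, 1569 and 1665 on the non-treated arrays, 686, 690.4 and 555 with DNFB, 493, 634 and 563 with H2O2, 1770.1, 1804 and 1824 with DPI, and 1621, 1335 and 1315 with DPI + DNFB. All 6 DNFB and H2O2 arrays were far below the other 9, among which the 3 DPI arrays varied least. Kif11 was 2.58-fold lower with DNFB (-1.37 ± 0.13, adjusted p = 2.4e-07, limma) and 2.19-fold higher with DPI + DNFB than with DNFB. Kif20a, a kinesin of the central spindle, gave 531, 598 and 575 on the non-treated arrays, 326, 349.7 and 288 with DNFB, 139.8, 224 and 168 with H2O2, 893, 958 and 917 with DPI, and 880.4, 1109 and 1032 with DPI + DNFB. Its H2O2 arrays were the lowest 3, the DNFB arrays next, and both DPI groups above all non-treated arrays. It fell by 0.80 with DNFB and fell by 1.62 with H2O2, and those agents differed (0.83 ± 0.17, adjusted p = 0.0024, DNFB minus H2O2). Kif23, the kinesin of centralspindlin, which marks the cleavage plane, gave 1943, 2119 and 1623 on the non-treated arrays, 635, 739 and 514 with DNFB, 881, 845 and 748 with H2O2, 1344, 1321 and 1418 with DPI, and 1548, 1887 and 1347 with DPI + DNFB. The DNFB arrays were lowest and the H2O2 arrays next, without overlap with each other or with the remaining 9. Kif23 was 2.98-fold lower with DNFB and 2.27-fold lower with H2O2.

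Kif22, the chromokinesin that pushes chromosome arms outward, gave 5129.7, 5876 and 5009 on the non-treated arrays, 1851, 1764 and 1685 with DNFB, 1381, 1825 and 1208 with H2O2, 3878, 7629.5 and 5096 with DPI, and 5068, 6183 and 6128 with DPI + DNFB. All DNFB and H2O2 arrays were below the other 9, and the 3 DPI arrays differed among themselves by more than those of any other group. Kif22 was 3.0-fold lower with DNFB, and its difference with DPI was -0.00 ± 0.18, which became 0.34, adjusted p = 0.047, with its probe sets averaged. Kif18a, which damps chromosome oscillation, gave 247, 349 and 367 on the non-treated arrays, 110.4, 251 and 82.3 with DNFB, 94.2, 101 and 85.0 with H2O2, 414, 637 and 480.4 with DPI, and 194, 213 and 166 with DPI + DNFB. DNFB replicate 2 fell within the non-treated range, and the fall with DNFB (-1.16 ± 0.31, adjusted p = 0.008, limma) was lost without DNFB replicate 3 (log2 -0.86, adjusted p = 0.061). Kif18a did not pass with DPI + DNFB against DNFB (0.47, adjusted p = 0.23) and fell against DPI alone (-1.33 ± 0.31, adjusted p = 0.0031). Kif20b and Kif2c, a microtubule depolymerase, fell by 1.02 and 0.89 with DNFB, although another probe set of Kif2c gave 0.16. Kif4, another chromokinesin, gave 391, 386 and 779 on the non-treated arrays, 414, 527 and 227 with DNFB, 491, 514 and 472 with H2O2, 456, 454 and 413 with DPI, and 639, 414 and 627 with DPI + DNFB, and its groups overlapped in every comparison. Kif15, a helper of Kif11, lay close to the signal filter, at 75.7, 75.1 and 63.5 on the non-treated arrays, 54.5, 34.2 and 83.0 with DNFB, 76.7, 27.8 and 67.9 with H2O2, 93.8, 42.4 and 81.1 with DPI, and 105, 33.2 and 73.9 with DPI + DNFB. Its groups overlapped, and the SE of its differences was 0.50 log2 units.

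The spindle and cytokinesis genes fell with both agents, 7 of 7 each time. Prc1, which bundles the microtubules of the central spindle, gave 1482, 1031 and 1312 on the non-treated arrays, 958, 818 and 829 with DNFB, 1038, 688 and 873 with H2O2, 1633, 1634 and 1598 with DPI, and 1151, 1159 and 1362 with DPI + DNFB. Its DNFB arrays lay just under the non-treated ones and its H2O2 arrays overlapped them. The falls (-0.53 ± 0.15, adjusted p = 0.013 with DNFB and -0.55 ± 0.15, adjusted p = 0.0095 with H2O2, limma) were lost without non-treated replicate 1 or DNFB replicate 2 (log2 -0.42 to -0.49, adjusted p 0.053 to 0.084) and without non-treated replicate 1 or H2O2 replicate 2 (log2 -0.40 to -0.44, adjusted p 0.062 to 0.069). Nusap1, a microtubule-binding spindle protein, fell by 1.59 with DNFB, Anln, the anillin of the cleavage furrow, by 0.97, Hmmr, a spindle pole protein, by 0.87, Racgap1, the partner of Kif23 in centralspindlin, by 0.77, Ect2, the exchange factor that activates RhoA there, by 0.63, and Tpx2, which activates Aurora A on the spindle, by 0.51. From DNFB to DPI + DNFB, Hmmr (1.49), Nusap1 (1.46) and Racgap1 (1.28) rose most, and Ect2 (0.34, adjusted p = 0.058) did not pass.

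All 5 passenger and Cdca genes fell with DNFB and with H2O2. Birc5, survivin, which brings the passenger complex to centromeres, gave 2472, 2211 and 2313 on the non-treated arrays, 1167, 1095 and 1244 with DNFB, 1162, 1289 and 1208 with H2O2, 1929.7, 1618 and 1785 with DPI, and 2839.8, 3219 and 2421 with DPI + DNFB. The 6 DNFB and H2O2 arrays were lowest, the DPI arrays between them and the non-treated arrays, and 2 of the 3 DPI + DNFB arrays above all others. Birc5 was 1.98-fold lower with DNFB (-0.99 ± 0.12, adjusted p = 3.4e-06, limma) and 2.39-fold higher with DPI + DNFB than with DNFB. Incenp, the scaffold of the complex, gave 4506, 4649.6 and 4837 on the non-treated arrays, 2365, 2436 and 2242 with DNFB, 2254, 2526 and 1772 with H2O2, 4599, 5055 and 4847 with DPI, and 6269.9, 5458 and 7569 with DPI + DNFB. Its DNFB and H2O2 arrays were far below the other 9, with changes of -0.99 and -1.10, but a dimmer probe set of Incenp gave 0.60 with DNFB. Cdca8, borealin, another subunit, gave 2129, 2155 and 2429.6 on the non-treated arrays, 1218, 1192 and 1323 with DNFB, 1658, 1763 and 1610.0 with H2O2, 2733, 3358 and 3061 with DPI, and 4172, 4422 and 4676 with DPI + DNFB. Its 5 groups did not overlap: DPI + DNFB was highest, then DPI, non-treated, H2O2 and DNFB. Cdca8 fell by 0.84 with DNFB and fell by 0.41 with H2O2. Cdca2, a phosphatase anchor on anaphase chromosomes, and Cdca3, a trigger of mitotic entry, fell by 1.17 and 1.12 with DNFB. Dimmer probe sets of Cdca3 gave 0.50 and 0.32.

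All 7 condensation genes fell with each agent. Top2a, topoisomerase II alpha, gave 6582, 5507 and 5296 on the non-treated arrays, 2208, 1769 and 1549 with DNFB, 2408, 3288 and 2335 with H2O2, 4079, 3359 and 3189 with DPI, and 6579, 6131 and 5202 with DPI + DNFB. The DNFB arrays were lowest, H2O2 and DPI arrays next with some overlap, and DPI + DNFB and non-treated arrays highest and mixed. Top2a was 3.15-fold lower with DNFB (-1.65 ± 0.15, adjusted p = 1.3e-07, limma), 2.17-fold lower with H2O2 and 3.24-fold higher with DPI + DNFB than with DNFB. Mki67, the Ki-67 surfactant of mitotic chromosomes and the usual marker of cycling cells, gave 4754, 4489 and 4702 on the non-treated arrays, 2023, 2513 and 2023 with DNFB, 1903, 2190.0 and 2427 with H2O2, 2861, 3358 and 3225 with DPI, and 6134, 6006 and 6467 with DPI + DNFB. DPI + DNFB arrays were the highest 3, non-treated arrays next, DPI arrays below those and DNFB and H2O2 arrays lowest, with no overlap but that between the last 2 groups. Mki67 fell by 1.09 with DNFB and fell by 1.10 with H2O2.

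The condensin subunits fell too. Smc2, an arm of the condensin ring, gave 2278, 2655 and 2656 on the non-treated arrays, 1793, 1760.2 and 1593 with DNFB, 870.5, 1340.1 and 1402 with H2O2, 2284, 2471 and 2649 with DPI, and 2406, 2392 and 1795 with DPI + DNFB. The H2O2 arrays were below all DNFB arrays, and DPI + DNFB replicate 3 was barely above them. Smc2 fell by 1.09 with H2O2 and by 0.55 with DNFB, the latter lost without DNFB replicate 3 (log2 -0.50, adjusted p = 0.052). Smc4, the other arm, gave 5135, 5165 and 5467 on the non-treated arrays, 3904, 3606 and 3759.8 with DNFB, 3847, 3759 and 4031 with H2O2, 6027, 5637 and 5687 with DPI, and 4895, 6069.8 and 4783 with DPI + DNFB. The 6 DNFB and H2O2 arrays were below the other 9, and Smc4 fell by 0.48 ± 0.10 with DNFB and fell by 0.44 ± 0.10 with H2O2. Ncapg, a HEAT-repeat subunit of condensin I, gave 557, 725 and 758 on the non-treated arrays, 282, 413 and 266 with DNFB, 178, 297 and 216 with H2O2, 489.8, 479 and 416 with DPI, and 729, 957 and 672 with DPI + DNFB. It fell by 1.06 with DNFB and fell by 1.52 with H2O2, its H2O2 arrays overlapping the DNFB ones. Ncapd2 and Ncaph, of the same complex, fell by 0.74 and 0.82 with DNFB and fell by 1.33 and 0.85 with H2O2.

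**Figure D4:**
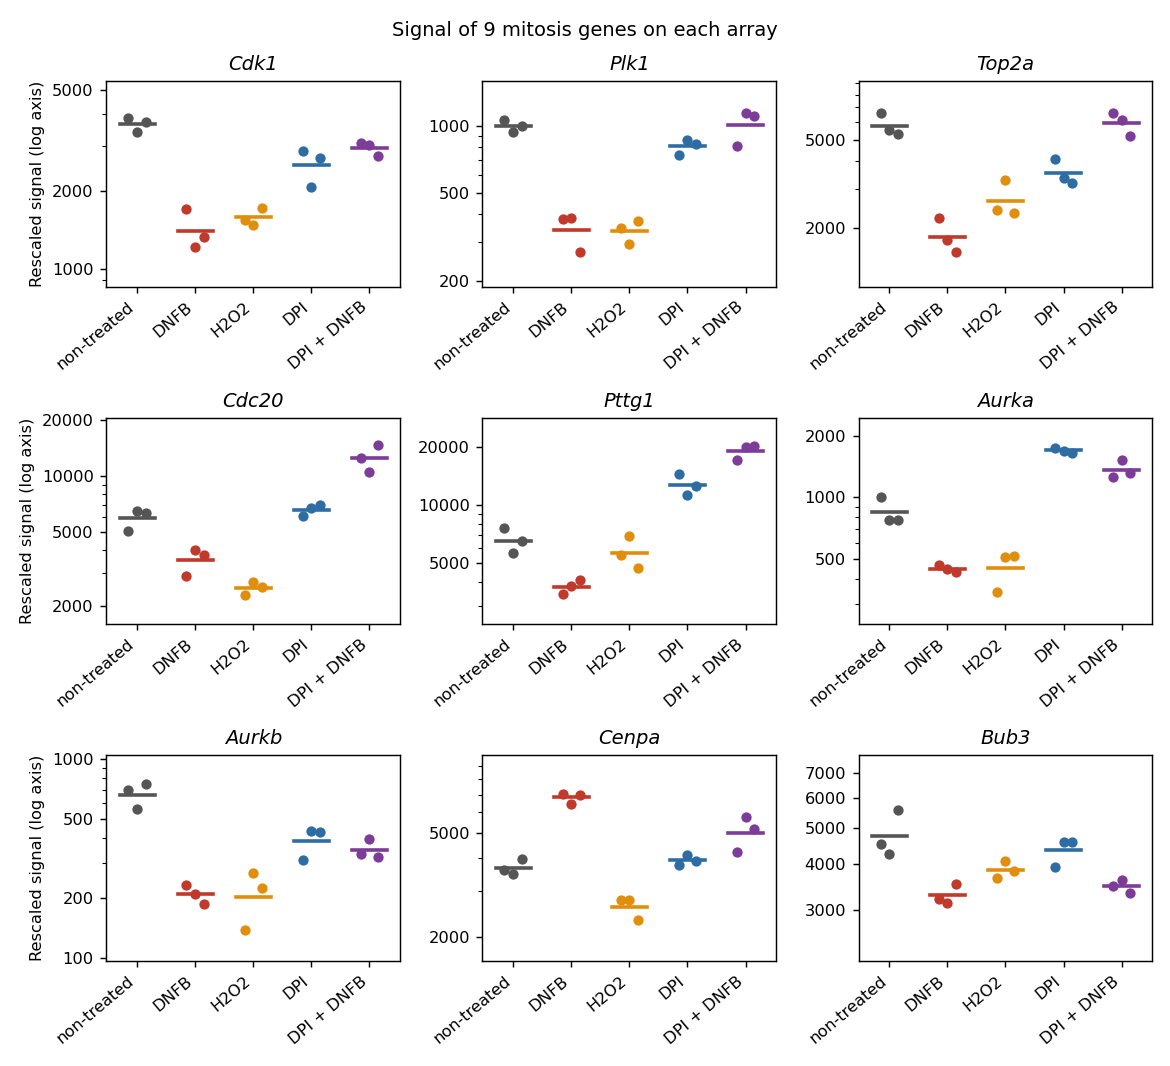
Rescaled signal (y axis, log scale) of 9 members on each of the 15 arrays, by group (x axis); points are arrays and horizontal lines group geometric means. Cdk1, Plk1 and Top2a are low with DNFB and H2O2, Pttg1 and Cdc20 are highest with DPI + DNFB, Aurka is highest with DPI, Aurkb stays below the non-treated level in both DPI groups, and Cenpa is highest with DNFB.

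DNFB and H2O2 were also compared with each other. Of the 56 members, 6 were higher and 3 lower with DNFB than with H2O2, or 10.7% and 5.4%, near the 8.75% and 6% of all genes tested, and the median difference was 0.04. The higher ones were Cenpa (1.38), Kif20a (0.83), Ncapd2 (0.59), Smc2 (0.53), Ect2 (0.53) and Cdc20 (0.49), and the lower ones Pttg1 (-0.57), Top2a (-0.53) and Cdca8 (-0.43). Cenpa, Kif20a and Cdca8 kept their limma calls whichever of the 15 arrays was left out. The other 6 calls each depended on single arrays: Pttg1 was lost without H2O2 replicate 2 (log2 -0.43, adjusted p = 0.06), Top2a without DNFB replicate 2 or 3 or H2O2 replicate 2 (log2 -0.38 to -0.51, adjusted p 0.072 to 0.13), Cdc20 without DNFB replicate 2 or 3 or H2O2 replicate 1 or 3 (log2 0.40 to 0.50, adjusted p 0.052 to 0.11), Ect2 without DNFB replicate 1 or 2 or H2O2 replicate 3 (log2 0.47 to 0.52, adjusted p 0.052 to 0.07), Smc2 without DNFB replicate 1 or 2 or H2O2 replicate 1 (log2 0.32 to 0.51, adjusted p 0.078 to 0.15) and Ncapd2 without DNFB replicate 1 or 2 or H2O2 replicate 1 or 2 (log2 0.42 to 0.58, adjusted p 0.06 to 0.11). The split of 6 higher and 3 lower was 5 and 6 after quantile normalization, against 7.56% and 5.92% of all genes. It was 5 and 1 with arrays centred on their median, against 7.76% and 3.2%. With that centring Pttg1 stayed lower, whereas Cdca8, Top2a and Smc2 no longer passed.

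DPI by itself, the control for the combined treatment, moved some members each way. With DPI, 9 members rose and 11 fell, or 16.1% and 19.6%, near the 13.3% and 18.4% of all genes tested, or 31.8% in either direction, and the median member stood at -0.05. Those that rose were Aurka (0.99), Pttg1 (0.96), Bub1 (0.76), Kif20a (0.69), Ccnb2 (0.67), Cdca3 (0.56), Hmmr (0.52), Cdca8 (0.44) and Plk4 (0.40). Those that fell were Spc25 (-0.79), Aurkb (-0.76), Top2a (-0.71), Cdca2 (-0.63), Mki67 (-0.56), Cdk1 (-0.53), Sgo1 (-0.49), Kif23 (-0.47), Ttk (-0.46), Ccna2 (-0.43) and Birc5 (-0.39). Both Aurora kinases passed, in opposite directions, as did partners within the passenger complex: Cdca8 rose and Aurkb and Birc5 fell. Aurkb was lost without non-treated replicate 3 or DPI replicate 1 (log2 -0.61 to -0.68, adjusted p 0.065 to 0.079), Birc5 without non-treated replicate 1 or DPI replicate 2 (log2 -0.33 to -0.35, adjusted p 0.061 to 0.074), Ccna2 without non-treated replicate 1 or 3 or DPI replicate 2 (log2 -0.36 to -0.42, adjusted p 0.05 to 0.081), Cdca2 without DPI replicate 2 (log2 -0.50, adjusted p = 0.054), Kif23 without non-treated replicate 1 or 2 or DPI replicate 1 or 2 (log2 -0.38 to -0.46, adjusted p 0.061 to 0.11) and Sgo1 without non-treated replicate 1, 2 or 3, DNFB replicate 1, 2 or 3, H2O2 replicate 3, or DPI replicate 2 or 3 (log2 -0.40 to -0.54, adjusted p 0.051 to 0.16), with Ttk and Plk4 given above. Another probe set of Ccna2 gave 0.26 with DPI. With probe sets averaged, 6 of the 9 stayed higher and 6 of the 11 lower. Cdca3, Hmmr and Plk4 no longer passed as higher, nor Spc25, Sgo1, Kif23, Ttk and Ccna2 as lower. Another 3 members then passed as higher and 2 as lower: these were Anln, Bub3, Cenpe, Kif22 and Prc1. Within the arrays deposited at 500 (2 against 2) 12 members passed, 7 of them higher, against 8.2% of all genes called higher and 11.9% lower. Within those at 250, 1 array stands against 1, which is no replicated test.

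The combined treatment asks whether the members' levels with the allergen differed when the inhibitor was present. Against DNFB alone, 47 members were higher with DPI + DNFB and 1 lower, against 22.9% and 21.3% of all genes tested. The median member stood at 1.19 and the median gene at 0.10. While 35 members rose by at least 2-fold, the 75th percentile of all genes was a log2 fold change of 0.58. For 49 members the 3 DPI + DNFB arrays lay wholly above the DNFB arrays and for 1 wholly below, against 28.4% and 23.9% of all genes. Pttg1 (5.02-fold, adjusted p = 2.4e-10, limma), Cdca8 (3.52-fold), Cdc20 (3.52-fold), Cdca3 (3.49-fold) and Ccnb2 (3.29-fold) rose most, and Cenpa fell by 0.45. The 8 members that did not pass were Ect2 (0.34), Smc2 (0.34), Kif4 (0.56), Kif18a (0.47), Kif15 (0.21), Cenpi (0.12), Bub3 (0.08) and Plk4 (-0.05). By role, those that rose were 4 of 4 cyclin, CDK1 and entry genes, 5 of 6 kinases, 3 of 4 checkpoint genes, 4 of 4 anaphase genes, 8 of 10 kinetochore genes, 6 of 9 kinesins, 6 of 7 spindle and cytokinesis genes, 5 of 5 passenger and Cdca genes and 6 of 7 condensation genes. DPI + DNFB replicates 1 and 3 had the high actin 3′ to 5′ ratio given above. With that ratio as a covariate 42 of the 47 stayed higher and Cenpa no longer passed (-0.19, adjusted p = 0.43, limma). Of all genes, 11.3% were higher and 11.6% lower with it. With arrays centred on their median, which moved the median of all genes from 0.10 to -0.17, 40 of the 47 stayed higher and Cenpa stayed lower. Of all genes, 12.7% were then higher and 30% lower. The arrays deposited at 500 by themselves, with 1 DNFB array, gave 41 members that passed, and those at 250, with 1 DPI + DNFB array, gave 44. Of the calls, Ndc80 was lost without DNFB replicate 3 (log2 0.49, adjusted p = 0.088) and Prc1 without DPI + DNFB replicate 3 (log2 0.41, adjusted p = 0.061), beside Aurkb above.

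The difference between the effect of DNFB with DPI and its effect without DPI was tested directly as an interaction. It was above 0 in 42 members and below 0 in 1, against 17.3% and 13.8% of all genes. The median was 1.20 for members and 0.14 for all genes. The interaction was at least 2-fold in 33 members, and its 75th percentile over all genes was 0.64 log2 units. Top2a had the largest interaction (2.41 ± 0.21, adjusted p = 1.2e-07, limma), as DNFB changed it by -1.65 without DPI and 0.75 with it. Spc25 followed (2.25 ± 0.26, adjusted p = 2.5e-06), from -2.0 to 0.25, then Mki67 (2.07 ± 0.16, adjusted p = 2.1e-08), from -1.09 to 0.98. Cenpa had the opposite sign (-0.54 ± 0.16, adjusted p = 0.016): DNFB raised it by 0.89 without DPI and by 0.35 with DPI. Plk4 (-0.45, adjusted p = 0.059) and Kif18a (-0.17, adjusted p = 0.81) had the next lowest values. Aurka (0.58, adjusted p = 0.051) and Bub1 (0.52, adjusted p = 0.073) missed the threshold. With the actin ratio as a covariate 36 of the 42 remained, and Cenpa did not (-0.30, adjusted p = 0.27, limma). Of all genes, 10.9% passed above 0 and 9.39% below 0 with it. With arrays centred on their median, which moved the median of all genes from 0.14 to -0.14, 35 of the 42 and Cenpa remained. Of all genes, 8.65% then passed above 0 and 19% below 0. Of the members that passed, 32 had several probe sets above the filter, and in 3 of them another one had the opposite sign. With probe sets averaged, 38 of the 42 and Cenpa remained, against 15.7% of all genes above 0 and 11.3% below 0. The interaction passed in 34 members within the arrays at 500, where DNFB has 1 array, and in 35 within those at 250, where every group but DNFB has 1. The interaction was lost for Cenpa without DPI + DNFB replicate 1 (log2 -0.42, adjusted p = 0.051), for Kif20b without DNFB replicate 3, DPI replicate 1, or DPI + DNFB replicate 1 (log2 0.77 to 0.89, adjusted p 0.053 to 0.067), for Kif2c without non-treated replicate 2, DPI replicate 1, or DPI + DNFB replicate 3 (log2 0.72 to 0.76, adjusted p 0.053 to 0.056), for Ncapd2 without non-treated replicate 1, DNFB replicate 3, DPI replicate 2 or 3, or DPI + DNFB replicate 1 (log2 0.62 to 0.68, adjusted p 0.054 to 0.072) and for Ndc80 without non-treated replicate 1 or DNFB replicate 3 (log2 0.75 to 0.79, adjusted p 0.065 to 0.07).

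**Figure D5:**
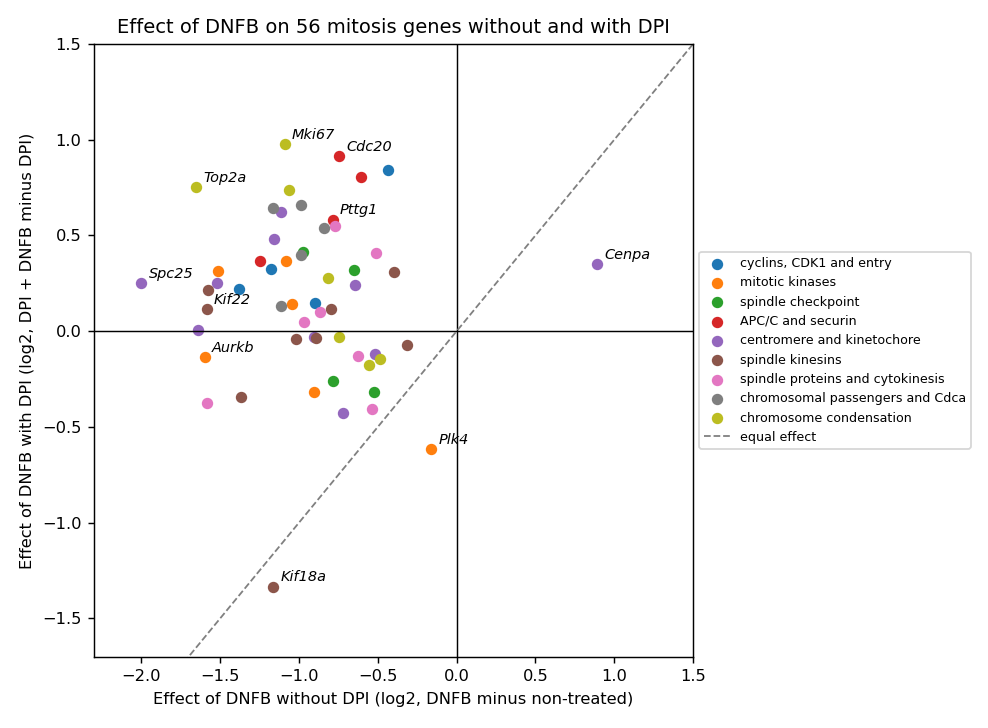
Effect of DNFB on each of the 56 members without DPI (x axis, log2, DNFB minus non-treated) and with DPI (y axis, log2, DPI + DNFB minus DPI), coloured by role; the dashed line marks equal effects. Most points lie at clearly negative x and at y near or above 0, and Cenpa stands alone at positive x.

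Within DPI-treated cells, DNFB lowered few members. These arrays played no part in the fold changes of DNFB against non-treated cells. All 15 arrays shared an estimate of the spread, however, so the calls are not independent. Against DPI alone, 15 members were higher and 3 lower with DPI + DNFB, against 14.1% and 13.7% of all genes, and the median member stood at 0.22 and the median gene at 0.08. The 3 DPI + DNFB arrays lay wholly above the DPI arrays for 23 members and wholly below for 7, against 21% and 17.7% of all genes. The 3 that fell were Kif18a (-1.33), Plk4 (-0.62) and Bub3 (-0.32), and 2 of the 49 members that fell with DNFB alone, Kif18a and Bub3, were among them. Those that rose most were Mki67 (0.98), Cdc20 (0.91), Cdc25c (0.84), Sgo1 (0.81) and Top2a (0.75). This count depended on the scale. With arrays centred on their median, which moved the median of all genes from 0.08 to -0.17, 4 members were higher (Cdc20, Mki67, Sgo1, Top2a) and 9 lower, or 7.1% and 16.1%, against 5.24% and 22.5% of all genes. With the actin ratio as a covariate 5 were higher (Birc5, Cdca8, Cenpa, Mki67 and Mad2l1) and 0 lower, against 2.11% and 2.15% of all genes. Without adjustment the count lower with that covariate at a p under 0.05 was 3. At 500 alone (2 against 2) 15 members passed, 12 of them higher, against 8.59% of all genes called higher and 8.93% lower. At 250 alone 1 array stands against 1, which is no replicated test. Calls that single arrays decided were Bub3, given above, Cdc25c, lost without DPI + DNFB replicate 3 (log2 0.72, adjusted p = 0.058), Cdca2 without DPI replicate 2 (log2 0.52, adjusted p = 0.056), Cenpa without DPI replicate 1 or 3 or DPI + DNFB replicate 2 or 3 (log2 0.25 to 0.35, adjusted p 0.075 to 0.12), Incenp without DPI replicate 1 or 3 or DPI + DNFB replicate 3 (log2 0.28 to 0.40, adjusted p 0.061 to 0.14), Ncapg without DPI replicate 3 or DPI + DNFB replicate 2 (log2 0.59 to 0.67, adjusted p 0.059 to 0.061), Spc24 without DPI replicate 2 or 3 or DPI + DNFB replicate 2 or 3 (log2 0.56 to 0.63, adjusted p 0.055 to 0.078) and Tpx2 without DPI replicate 1 or 3 or DPI + DNFB replicate 2 or 3 (log2 0.28 to 0.39, adjusted p 0.088 to 0.15).

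Against non-treated cells, DPI + DNFB left most members near their level and some above it. Of the 56, 16 were higher and 3 lower, against 15% and 18.7% of all genes, and the median member stood at 0.11 and the median gene at 0.02. The 3 arrays lay wholly above the non-treated ones for 20 members and wholly below for 6, against 21.4% and 23% of all genes. The highest were Pttg1 (1.54 ± 0.14, adjusted p = 1.2e-07, limma), Cdc20 (1.07 ± 0.14, adjusted p = 8.5e-06), Cdca8 (0.98 ± 0.11, adjusted p = 1.3e-06), Cdc25c (0.97 ± 0.23, adjusted p = 0.0031) and Ccnb2 (0.82 ± 0.15, adjusted p = 2.4e-04). The lowest were Aurkb (-0.90 ± 0.23, adjusted p = 0.0044), Kif18a (-0.69, adjusted p = 0.09), Cenpi (-0.60, adjusted p = 0.11) and Spc25 (-0.54), the last lost without non-treated replicate 1 or 3 or DPI + DNFB replicate 2 or 3 (log2 -0.41 to -0.54, adjusted p 0.051 to 0.14), and Bub3 fell by 0.44. With arrays centred on their median, which moved the median of all genes from 0.02 to -0.23, 7 members were higher (Ccnb2, Cdc20, Cdc25c, Cdca3, Cdca8, Kif20a and Pttg1) and 11 lower, or 12.5% and 19.6%, against 7.24% and 29.4% of all genes. With the actin ratio as a covariate 6 were higher (Ccnb2, Cdca3, Cdca8, Cenpa, Pttg1 and Mad2l1) and 0 lower, against 3.25% and 4.07% of all genes; without adjustment the count lower at a p under 0.05 was 0. Ccnb2, Cdca3, Cdca8 and Pttg1 were higher in both of these as well. DPI + DNFB replicate 2 had the lowest actin ratio of this group, though its Gapdh ratio was above those of the other groups. On it the median member stood at 0.21 from the non-treated mean and the median gene at -0.01. A single array is no replicated test. Within the arrays at 500 (2 against 2) 17 members passed, 13 of them higher, against 10.1% of all genes called higher and 12.6% lower. Within those at 250, 1 array stands against 1, which is no replicated test. Single arrays decided Bub1, lost without non-treated replicate 3 or DPI + DNFB replicate 1 or 2 (log2 0.37 to 0.46, adjusted p 0.054 to 0.08), Incenp without DPI + DNFB replicate 3 (log2 0.33, adjusted p = 0.066), Racgap1 without DPI + DNFB replicate 3 (log2 0.41, adjusted p = 0.056) and Spc24 without non-treated replicate 1 or 2, DPI replicate 3, or DPI + DNFB replicate 2 or 3 (log2 0.41 to 0.53, adjusted p 0.052 to 0.18).

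Related genes outside the set were read from lists chosen with earlier results of these data known. Of the genes of S phase DNA replication, 33 of 42 (78.6%) fell and 0 rose with DNFB, with a median of -0.83, and 33 fell and 0 rose with H2O2, against 13.9% and 17.4% of all genes that fell. With DPI 17 of the 42 (40.5%) rose and 6 (14.3%) fell, against 13.3% and 18.4% of all genes. From DNFB to DPI + DNFB 35 of the 42 (83.3%) rose and 0 fell, against 22.9% of all genes that rose. Rrm2, the small subunit of ribonucleotide reductase, gave 4526, 4019.8 and 5116 on the non-treated arrays, 1038, 1018 and 908 with DNFB, 1178, 1097 and 1371 with H2O2, 6309, 5448 and 6085 with DPI, and 4664, 4391 and 5763 with DPI + DNFB. It fell by 2.18 with DNFB and 1.89 with H2O2, and DPI + DNFB arrays lay within or near the non-treated range (0.11, adjusted p = 0.52, limma). Tk1, thymidine kinase, Cdc7, a kinase that fires origins, and Ccne1, cyclin E1, fell by 1.92, 1.69 and 1.56 with DNFB. Pcna, the sliding clamp of DNA polymerases, did not pass with DNFB (-0.26) or H2O2 (-0.12), and its rise with DPI (0.38) was lost without non-treated replicate 1, 2 or 3 or DPI replicate 1 or 3 (log2 0.30 to 0.39, adjusted p 0.053 to 0.11). A mean over the probe sets of Cdc7 gave -0.91, adjusted p = 0.077, with DNFB. The counts of 0 by limma compare with 0, 0 and 0 at an unadjusted p under 0.05.

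Spindle, centrosome and cytokinesis genes that are not members fell in 21 of 42 cases (50%) with DNFB and rose in 1, against 13.9% and 10.5% of all genes, and rose in 26 (61.9%) from DNFB to DPI + DNFB, against 22.9%. Depdc1b (-2.11), Aspm, a spindle pole protein (-1.42), Haus4, of the augmin complex (-1.29), and Depdc1a (-1.10) fell most with DNFB. Of other centromere and kinetochore genes, 6 of 30 (20%) fell and 1 rose with DNFB, 12 (40%) fell with H2O2, against 17.4% of all genes, and 15 (50%) rose from DNFB to DPI + DNFB. The one that rose with DNFB was Zwint, the ZW10 anchor at the outer kinetochore, which gave 1753, 1922 and 2135 on the non-treated arrays, 3803, 3603 and 4250.0 with DNFB, 2404, 2151 and 2493 with H2O2, 1470.2, 1575 and 1864 with DPI, and 1096, 1294 and 1252 with DPI + DNFB. Its 3 DNFB arrays were the highest of the 15, as those of Cenpa were, with a change of 1.0 ± 0.12, adjusted p = 3.6e-06 (limma), and it fell by 1.67 from DNFB to DPI + DNFB. Of the cohesin genes, 4 of 15 (26.7%) were lower and 2 (13.3%) higher with DNFB, against 13.9% and 10.5% of all genes, the lowest being Esco2 (-1.70) and Cdca5, sororin (-1.32), which tie sister chromatids in S phase. In the anaphase-promoting complex and its partners, 3 of 21 fell with DNFB and 1 rose, 14.3% and 4.8%, the former near the 13.9% of all genes. Fbxo5, EMI1, an inhibitor of that complex, fell by 1.67. Of 16 condensin II and other chromosome structure genes, 6 fell and 3 rose (37.5% and 18.8%), and of 14 G1 cyclins and kinases 9 fell and 1 rose (64.3% and 7.1%), against the same 13.9% and 10.5%.

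Regulators of these promoters were counted in the same way. Of 25 genes for DREAM, MuvB, B-MYB, FOXM1, E2F and their partners, 9 fell and 1 rose with DNFB (36% and 4%), against 13.9% and 10.5% of all genes. With H2O2 8 fell and 2 rose (32% and 8%), against 17.4% and 10.9%. From DNFB to DPI + DNFB 8 rose and 4 fell (32% and 16%), against 22.9% and 21.3%. Foxm1, the forkhead activator of G2 and M phase genes, gave 503, 419 and 427 on the non-treated arrays, 438, 398 and 334 with DNFB, 515, 278 and 393 with H2O2, 509, 502 and 520.2 with DPI, and 729, 515 and 683 with DPI + DNFB. Its DNFB and H2O2 arrays overlapped the non-treated ones, and it did not pass with DNFB (-0.20 ± 0.20) or H2O2 (-0.22). Its DPI + DNFB arrays lay above all non-treated and DNFB arrays, with replicates 1 and 3 highest. Its rise from DNFB to DPI + DNFB (0.69 ± 0.20, adjusted p = 0.0081, limma) was lost with arrays centred on their median (0.42, adjusted p = 0.072) and with the actin covariate (0.39, adjusted p = 0.38). Mybl2, B-MYB, was -0.55 ± 0.23 with DNFB without passing and rose by 1.36 from DNFB to DPI + DNFB, a call lost with the actin covariate (0.94, adjusted p = 0.052). E2f8, a repressor of the E2F family that is itself made in S phase, gave 1471, 1421 and 1661 on the non-treated arrays, 339.6, 179 and 226 with DNFB, 277, 287 and 400.3 with H2O2, 1463, 1200.2 and 1223 with DPI, and 869, 718 and 669.9 with DPI + DNFB. It fell by 2.59 with DNFB and fell by 2.20 with H2O2. Myb fell to the level of the pseudocount with DNFB, at 4.70, 7.53 and 16.5 from 224, 155 and 277, so its fold there is uncertain. Rbl1, or p107, of DREAM, fell by 0.90, and a mean over its probe sets gave -0.52, adjusted p = 0.12.

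Inhibitors of the cycle included genes that rose. Of 19 CDK inhibitors and p53 brakes, 8 rose and 5 fell with DNFB (42.1% and 26.3%), against 10.5% and 13.9% of all genes, and 7 rose and 7 fell with H2O2 (36.8% each), against 10.9% and 17.4%. Cdkn1a, p21, the CDK inhibitor induced by p53, gave 1337, 1318 and 958 on the non-treated arrays, 8038, 7251 and 6445 with DNFB, 8449, 9375 and 7159 with H2O2, 3151, 2625 and 3015 with DPI, and 2238, 2264 and 2134 with DPI + DNFB. The H2O2 and DNFB arrays were highest, DPI arrays next, DPI + DNFB arrays below those and non-treated arrays lowest. Cdkn1a was 5.99-fold higher with DNFB (2.58 ± 0.13, adjusted p = 7.7e-11, limma), 6.87-fold higher with H2O2, 2.43-fold with DPI and 1.85-fold with DPI + DNFB than in non-treated cells, and its interaction was -2.98 ± 0.19, adjusted p = 1.9e-09. Plk2, a stress-induced polo-like kinase (2.68), Btg1, an antiproliferative factor (1.52), and Gadd45b (1.43) also rose with DNFB. With DPI + DNFB against DNFB, Gadd45b rose by 2.78 and Btg1 fell by 1.77. Ccnd1, cyclin D1 of G1, gave 10485, 10259 and 9710.0 on the non-treated arrays, 4668, 4279 and 3861 with DNFB, 5805, 5105 and 4743 with H2O2, 2342, 2406 and 1844 with DPI, and 4179, 4212 and 3648 with DPI + DNFB. It fell with each of DNFB (-1.25), H2O2 (-0.96), DPI (-2.21) and DPI + DNFB (-1.34), and its difference between DPI + DNFB and DNFB was -0.09, adjusted p = 0.58.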

How the data were processed

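Arrays of a mouse dendritic cell line, 3 in each of 5 groups, were analysed. TRIzol and RNeasy were used for RNA and a 3′ IVT Express kit for labelling, per the labels' protocols. The deposited values were MAS5 signals, a linear intensity per probe set, made by the authors with Affymetrix Expression Console per the submitters' processing notes. Arrays were multiplied to a common 2% trimmed mean of 500, and log2(signal + 15) was tested. Of 45037 probe sets that are not controls, 34945 had 1 gene symbol, 932 several and 9160 none. Of those with 1 symbol, 34741 matched RefSeq by gene ID and 204 kept their older symbol. Probe sets whose mean reached the 40th percentile (log2 6.22) were kept, 27022 in all, and the brightest stood for each of 12701 genes.

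All 15 arrays were fitted together with limma 3.58.1 in R 4.3.3, with a trend in eBayes and 10 residual degrees of freedom, for 8 comparisons. The fit was tested on simulated data. Alternatives were another pseudocount, no filter, quantile normalization, median centring, the values as deposited, probe set means, replicate and scaling blocks, scaling sets apart, an actin covariate, a stricter threshold and each array left out. Replicate numbers were not used as pairing in the main fit. Promoter windows were searched for TTTGAA and CCAAT on both strands.

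The genes named were those fixed by role plus the 3 highest and 3 lowest members of each comparison, and in other lists the largest passing changes. Other members were named to account for each, after their values were seen. Members and lists were chosen with earlier results of these data known.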

Additional observations from a re-analysis of the deposited data

Results flagged for a closer look

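The change with DNFB differed with and without DPI, as tested by the limma interaction, in 43 of the 56 mitosis genes: the log2 effect was higher with DPI in 42 and lower in 1. The 3 largest were Top2a (2.41), Spc25 (2.25) and Mki67 (2.07). The 1 in the other direction was Cenpa (-0.54), the centromeric histone that rose with DNFB. These values are listed because the difference itself passed the test at an adjusted p below 0.05. Cenpa no longer passed without DPI + DNFB replicate 1 (-0.42, adjusted p = 0.051) or with the actin 3′ to 5′ ratio as a covariate.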

How the results depend on the processing

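The counts of members called, in the order DNFB, H2O2, DPI and DPI + DNFB against non-treated cells, DPI + DNFB against DPI, DPI + DNFB against DNFB, DNFB against H2O2 and the interaction, were 50, 52, 20, 19, 18, 48, 9 and 43. With the values as deposited, where arrays of 1 group differ in trimmed mean, they were 9, 2, 0, 0, 0, 29, 0 and 2 by limma. At an unadjusted p under 0.05 the DPI count was 1, DPI + DNFB 2, DPI + DNFB against DPI 1 and DNFB against H2O2 2. Within the arrays at 500 the counts were 12 with DPI and 1 for DNFB, with 1 array, against H2O2. Within those at 250 they were 7 with DPI, 6 and 2 for DPI + DNFB against non-treated cells and DPI, and 5 for DNFB against H2O2, where every group but DNFB has 1 array, so these compare single arrays or 2 with 1. With the actin covariate they were 6 and 5 for DPI + DNFB against non-treated cells and DPI. At an adjusted p below 0.01 they were 13 with DPI, 11 for DPI + DNFB against DPI and 4 for DNFB against H2O2. Leaving DPI + DNFB with its replicate 2 alone was an alternative chosen after seeing the data, and with 1 array it is no replicated test. With 1 array left out the counts ran from 46 to 51, 48 to 52, 14 to 21, 16 to 20, 12 to 20, 46 to 50, 5 to 11 and 41 to 45. The lowest for DNFB against H2O2, 5, came without DNFB replicate 2. Kif22 turned with DPI when its probe sets were averaged (0.34, adjusted p = 0.047, from -0.00). Except where a value shows the cause, the cause was not tested. For single members, 12568 of the alternative values had the same status as in the main fit, which includes values not called in either. Another 720 lost a call and 151 gained one. The 1 that turned passed with a sign opposite to that of a main value that had not passed.

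With the replicate number as a replicate block the counts were 50, 52, 22, 20, 19, 48, 12 and 44. Deviations of arrays from their group means correlated at -0.0027 to 0.144 (median 0.0738) over 30 pairs with the same number. Over 60 pairs with different numbers they correlated at -0.138 to 0.0484 (median -0.0327). Arrays with the same number were thus slightly more alike. Whether the numbers mark pairs was not tested, and the main fit did not use them. Signal over background and 3 arrays a group limit the precision: Kif15, near the filter, had an SE of 0.50.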
